A study of Mus musculus with 8 samples.

Results

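Intestinal organoids sampled 20 days after tamoxifen were the subject, as 4 arrays, replicates 1 to 4, of the 8 arrays in the series; they were chosen by their titles, which give the day and the replicate number. Organoids are 3-dimensional epithelial cultures grown from crypts. All cultures came from C57Bl mice aged 2 to 3 months with the genotype Lgr5-EGFP-IRES-CreER; Apcflox/flox, in which tamoxifen activates a Cre recombinase expressed from Lgr5, a gene of intestinal stem cells, and the recombinase deletes the floxed part of Apc. Tamoxifen was given for 2 days, and R-Spondin1 was then withheld for 18 days so that only organoids able to grow without this Wnt agonist would remain. Deletion thus began only in cells that expressed the driver, there was no undeleted culture among the samples, and the labels do not say whether the 4 replicates came from separate cultures or separate mice. Biotin-labelled RNA was hybridised to Illumina mouse beadchips, and the deposited values are log2 intensities. The arrays are described here on their own, across autosomal genes, and no contrast with another day was made.

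The APC protein is part of the complex that marks beta-catenin for destruction. Without it, beta-catenin persists and, with TCF transcription factors, switches on Wnt target genes, among them genes of crypt base stem cells and feedback inhibitors of the pathway. In the crypt, Wnt signals keep stem cells dividing and also mature Paneth cells, the granule-filled cells at the crypt base that secrete lysozyme and alpha-defensins. Enterocytes, goblet, enteroendocrine and tuft cells, the other differentiated lineages, form as cells leave that zone.

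Each of 18254 autosomal genes was represented by the probe with the highest mean over the 4 arrays. A background limit was set at 6.796 on the log2 scale, and 9967 genes (54.6%) lay above it on all 4 arrays. Another 4437 genes lay above it on 1 to 3 arrays, 2007 of them on 1 array, and 3765 genes (20.6%) had no probe above it on any array. Each array had 11921 to 12013 genes above the limit and a median of 6.81, which its scaling to a common distribution fixes. Arrays carry no counts, and precision is limited by having 4 of them. Background was left in the values, so differences of dim genes are compressed.

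The replicates did not share one pattern of sex-linked transcripts. The X-linked RNA Xist, which silences an X chromosome in female cells, was at 6.68, 10.29, 10.41 and 6.74 on replicates 1 to 4. Eif2s3y, a Y-linked gene, was at 8.34, 6.70, 6.67 and 8.51. Replicates 1 and 4 thus had Eif2s3y without Xist signal and replicates 2 and 3 the reverse. The 2 patterns are not those of 1 animal, so more than 1 animal was used, and how many is not given. The labels give no sex and no batch. Results that rest on the spread of the 4 arrays are therefore given array by array. The pairs of replicates 1 and 4 and of 2 and 3 were taken alone only for correlations across genes and counts of differing genes. No gene list was recalculated within them. Anything else that differed between these cultures cannot be told apart from the sex-linked difference.

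The targeted gene and the driver gene were read first. Apc was at 7.34, 7.12, 7.43 and 7.22 (7.28 ± 0.14, SD, n = 4). No source used here places its probe inside or outside the deleted part, so this signal checks nothing about the deletion. Lgr5, the R-spondin receptor that drives the Cre, was at 8.95, 8.80, 9.33 and 8.86 (8.98 ± 0.24, SD, n = 4), with replicate 3 the highest.

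The brightest probes belonged to genes of protein synthesis, chromatin and energy supply. Of the 25 genes with the highest mean signal, from 14.83 to 15.32, 10 encode ribosomal proteins and 5 encode histones of the H2A family. Among the brightest 100, with means of at least 13.68, there were 32 ribosomal protein genes and 7 histone genes. Probes differ in how well they bind, so this order is one of probe brightness and not of transcript number, and values near 15.43, the highest on each array, have little room to differ.

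Rplp1, a protein of the ribosomal stalk, was the brightest gene at 15.10, 15.31, 15.43 and 15.43 (15.32 ± 0.16, SD, n = 4), lowest on replicate 1. Rps2, of the small ribosomal subunit, was at 15.32, 15.23, 15.29 and 15.38 (15.30 ± 0.06), and the 4 arrays lay close together. The other ribosomal members were Rps12, Rps29, Rps9, Rpl41, Rps19, Rpl38, Rpl23 and Rpl9. Of all 59 ribosomal protein genes measured, 52 were above the limit on every array, with a median signal of 13.85. Their median range, the highest minus the lowest array, was 0.23, and 2 of the 59, Rpl22 and Rps4l, had a range of at least 1.

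The histone genes were H2ac24, H2ac20, H2ac10, H2ac13 and H2ac7, whose products pack newly made DNA. H2ac24 was at 15.16, 15.25, 15.37 and 15.32. These genes are near-identical copies, so a probe may read several of them and the assignment to 1 copy is uncertain. The remaining bright genes were Atp5b and Atp5g3 of the mitochondrial ATP synthase, the elongation factor Eef1a1, the cytokine Mif, the RNA-binding protein Ybx1, the prolyl isomerase Ppia, the tubulin Tubb5, the ferritin heavy chain Fth1 and Actb, beta-actin. Gpx2, the glutathione peroxidase of the gut epithelium, had the widest range of the 25, at 15.08, 14.46, 14.87 and 15.13, with replicate 2 the lowest. The ranges of the 25 ran from 0.05 to 0.67, with a median of 0.18.

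Among genes with a mean of at least 12, the 10 with the smallest SD were Polr1d, Hopx, Rpl37, Rps19, Pdap1, Cct4, Hmgn1, Rps3, Rps9 and Uck2. Polr1d, a subunit shared by RNA polymerases I and III, was at 12.12, 12.15, 12.14 and 12.14. Hopx, a homeodomain protein used as a marker of reserve stem cells, was at 12.45, 12.42, 12.42 and 12.40. These genes were picked for a small SD, so that is a description. A second Polr1d probe was less steady, at 11.64, 11.44, 11.54 and 11.92, and with probes averaged the range of Polr1d was 0.253 in place of 0.03.

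Marker genes of 15 cell classes gave 178 memberships with a measured probe, counting a gene once in each list that holds it. Of these, 89 were above the limit on all 4 arrays, near the share of 54.6% over all autosomal genes. That share is the one to set beside the count of every list below, also where it is not repeated. A count near it is no result about the list. Genes of general epithelium were above it in 11 of 12 members, with a median of 11.78 over those 11. The keratin gene Krt8 was at 13.99, 13.90, 13.77 and 13.73, and the intestinal transcription factor Cdx2 at 11.58, 11.74, 11.99 and 11.79. Epcam, an epithelial adhesion molecule that defines the tissue, was the exception, at 6.92, 6.79, 7.00 and 6.86 by its only named probe, with replicate 2 just below the limit. The other epithelial genes thus bore out the labelled tissue, and the Epcam probe was dim.

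**Figure D1:**
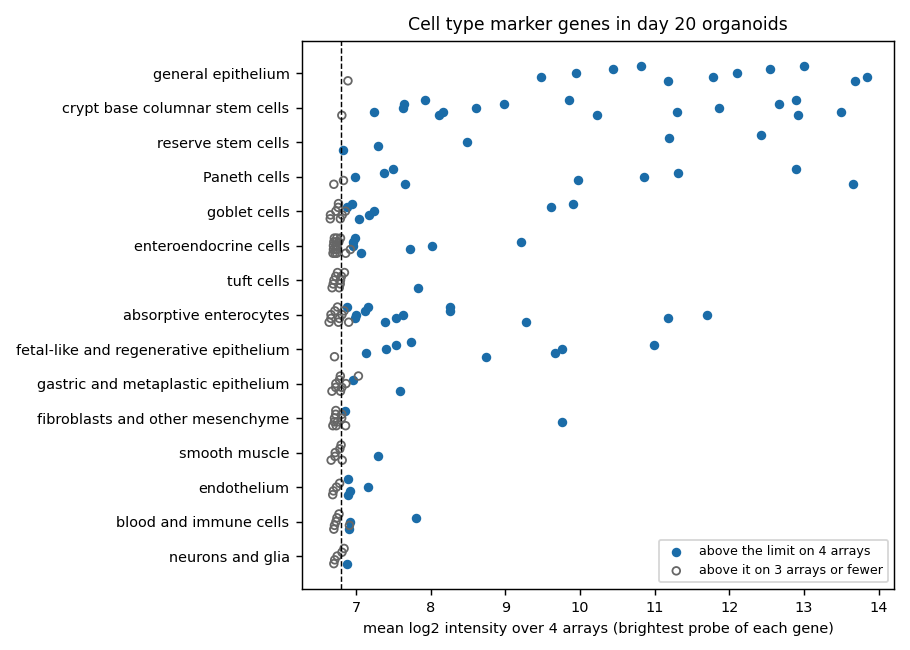
Mean log2 intensity over the 4 day 20 arrays of the marker genes of 15 cell classes, 1 point per measured gene, filled where the gene was above the background limit (dashed line, 6.796) on all 4 arrays and open otherwise. General epithelium and stem cell markers spread up to 13.85 and 13.50, whereas most enteroendocrine, tuft, endothelial, blood and neural markers lie at the limit.

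Crypt base stem cell genes were above the limit in 16 of 17 members, against 54.6% of all autosomal genes, with a median of 9.42. Slc12a2, an ion transporter of crypt cells, was at 13.57, 13.10, 13.79 and 13.54, and the transcription factor gene Sox9 at 13.23, 12.56, 12.89 and 12.86. Ascl2, a transcription factor that maintains these stem cells, was at 9.63, 9.82, 9.91 and 10.07, and Smoc2, a secreted matrix-associated protein, at 8.64, 8.13, 7.97 and 7.89. Their ranges ran from 0.44 to 0.75, within the threshold of 1 log2 unit used below. Olfm4, a secreted protein of stem cells under Notch control, was nearly at background on replicate 2 alone, at 8.26, 6.98, 8.54 and 7.94, and its other probe was above the limit on 1 array. Znrf3, a ubiquitin ligase that removes Wnt receptors, was the member below the limit, on replicate 4. Reserve stem cell genes were above it in 5 of 5 members, with Tert, the telomerase gene, only just so at 6.80 to 6.86.

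Paneth cell genes were above the limit in 9 of 11 members, against 54.6% of all autosomal genes, with a median of 9.98. They included Lyz1, encoding Paneth cell lysozyme, at 12.40, 13.04, 14.37 and 11.75, and the alpha-defensin gene Defa20 at 13.04, 14.14, 15.13 and 12.28. In both, replicate 3 was the highest and replicate 4 the lowest. Lyz2, the lysozyme gene of macrophages and other myeloid cells, was not above the limit on any array. These values are taken up again with the spread between arrays.

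Goblet cell genes were above the limit in 7 of 15 members, with a median of 7.17 over those 7. That count is near the 54.6% of all autosomal genes and is no result about the list. Tff3, a trefoil peptide of the mucus layer, was at 9.79, 9.91, 10.08 and 9.83. Spink4, a secreted protease inhibitor, was at 9.04, 9.51, 11.14 and 8.76, high on replicate 3. Muc2, the main intestinal mucin, was at 7.12, 7.20, 7.76 and 6.89, close to the limit on every array. Fcgbp, a mucus protein, Atoh1, the factor that specifies secretory cells, and the protease gene Capn9 were above the limit on no array. Among the genes named here signal was uneven, from a bright Tff3 probe to Muc2 and Fcgbp at or near background.

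Absorptive enterocyte genes were above the limit in 13 of 23 members, with a median of 7.54. That count too is near the 54.6% of all autosomal genes and is no result about the list. Prap1, a secreted protein, was at 11.40, 12.26, 11.61 and 11.53, and Vil1, the brush border protein villin, at 11.14, 11.13, 11.02 and 11.41. Dpp4, a brush border peptidase, was at 8.96, 9.77, 9.79 and 8.56, higher on replicates 2 and 3 than on 1 and 4. Genes of digestion and fat transport were dim, with the disaccharidase gene Sis at 6.94 to 7.03 and the apolipoprotein gene Apoa1 at 7.22 to 7.57. Fabp1 and Fabp2, which bind fatty acids, and the fructose transporter gene Slc2a5 were above the limit on no array.

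Enteroendocrine genes were above the limit in 7 of 24 members, against 54.6% of all autosomal genes, with a median of 7.07. Sct, encoding secretin, was at 8.79, 9.31, 9.92 and 8.82, and Neurog3, which commits cells to the hormone-secreting lineage, at 8.09, 7.67, 8.39 and 7.93. Chgb, a granule protein, was at 6.98, 6.86, 7.60 and 6.84. Replicate 3 was the highest in all 3. The hormone genes Gcg, Cck, Sst, Pyy and Tac1, with Pcsk1, Pax6 and Tph1, were above the limit on no array. Of 11 tuft cell genes, the chemosensory cells of the gut, only the actin-binding protein gene Avil was above it on all 4, at 7.53, 8.47, 8.38 and 6.94.

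Genes of fetal-like and regenerative epithelium, a state seen in repair and in fetal gut, were above the limit in 8 of 9 members. The median of these 8 was 8.24, and the share above the limit over all autosomal genes was 54.6%. Ccn2, a secreted YAP target, was at 10.55, 11.46, 11.40 and 10.56. Il1rn, which blocks the interleukin 1 receptor, was at 10.05, 9.64, 9.63 and 9.69. Il33, an alarm cytokine, was at 8.27, 9.71, 9.03 and 7.93, the widest of this list. Ereg, a growth factor of the EGF family, was above the limit on no array. Gastric and metaplastic genes were above it in 2 of 11 members, Tff2 and Muc1, with means of 7.59 and 6.96.

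Markers of cells outside the epithelium were mostly at or near background in signal. Mesenchymal genes were above the limit on all 4 arrays in 2 of 12 members, Vim and, at 6.84 to 6.88, Pdgfra. Of the defining fibroblast genes Col1a1, Dcn, Lum, Twist2, Postn and Thy1, each was above it on no array. Endothelial genes were above it in 4 of 8, near the 54.6% of all autosomal genes, all with means of 7.16 or less. Smooth muscle genes were above it in 1 of 7 (Acta2, mean 7.29), blood and immune genes in 3 of 9 and neural and glial genes in 1 of 6 (Gfap, mean 6.88). Ptprc, the pan-leukocyte antigen, was above the limit on no array. Cd74, the invariant chain of MHC class II, was the brightest blood and immune member at 7.87, 7.51, 8.34 and 7.48.

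The 4 arrays were close to each other, some pairs more than others. Across the 9967 genes above the limit on every array, Pearson's r was 0.9904 between replicates 1 and 4, 0.989 between 2 and 3, and 0.98 to 0.9823 for the other 4 pairs; genes are not independent replicates, so these are descriptions. Between replicates 1 and 4, 26 genes lay at least 1 log2 unit apart, a 2-fold difference. Between replicates 2 and 3 there were 53. For the pairs across, the counts were 205 (1 and 2), 144 (1 and 3), 166 (2 and 4) and 137 (3 and 4).

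**Figure D2:**
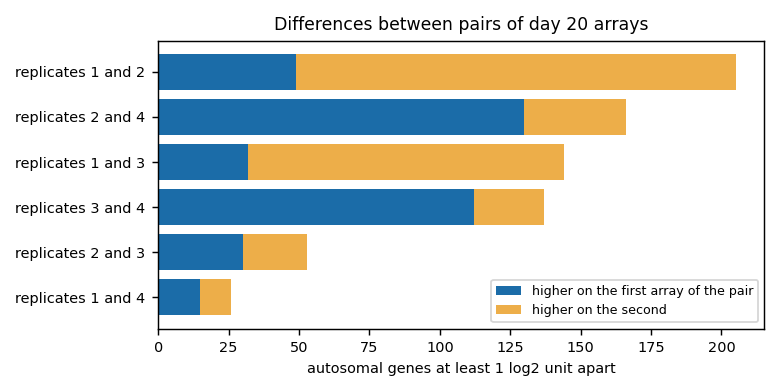
Number of autosomal genes at least 1 log2 unit apart in each of the 6 pairs of day 20 arrays, split by which array of the pair was higher, out of 14404 genes above the background limit on at least 1 array. The 4 pairs that cross between replicates 1 and 4 and replicates 2 and 3 hold 137 to 205 genes, against 26 and 53 for the 2 other pairs.

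Over all 4 arrays, 359 of the 14404 genes above the limit on at least 1 array (2.49%) had a range of at least 1. The count was 1537 with the background mode subtracted, 225 with probes averaged, 209 without replicate 2 and 237 without replicate 1, so it and the shares by signal below hold for these values and 4 arrays only. Of the 9967 genes above it on every array, 346 did (3.47%). The threshold cuts through a smooth slope, with 9 genes at a range of exactly 1 and 12 at 0.99. A range of at least 2 was reached by 34 genes (0.236%). Wide ranges were found at middle signal, in 5.58% of genes with a mean from 8 to 10 and 4.47% from 10 to 12, against 0.965% below 8, where background compresses differences, and in 0 of 64 genes at 14 or above.

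**Figure D3:**
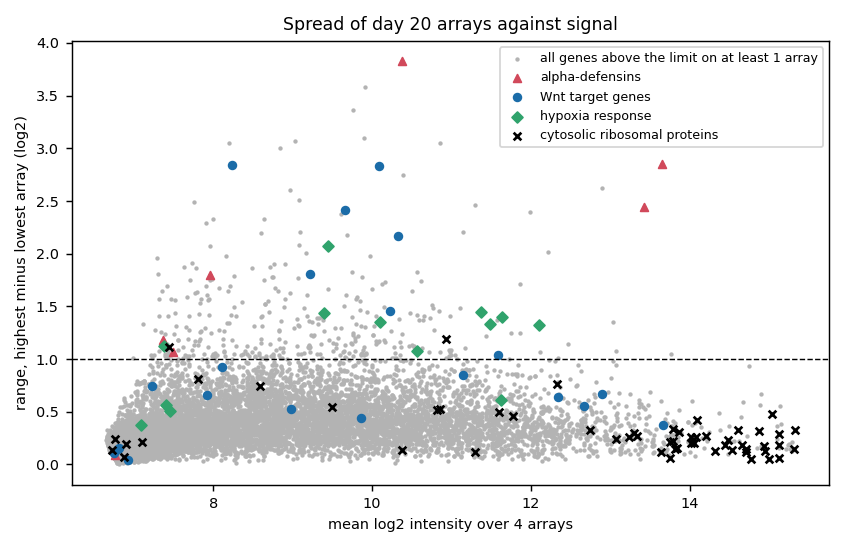
Range over the 4 day 20 arrays (highest minus lowest, log2) against mean log2 intensity for 14404 autosomal genes above the background limit on at least 1 array, in grey, with 4 gene lists marked; the dashed line is at a range of 1. Ribosomal protein genes keep narrow ranges at high signal apart from Rpl22 and Rps4l at lower signal, while 6 alpha-defensin, 7 Wnt target and 9 hypoxia genes lie above the line.

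How the arrays divided was read from the largest gap between ordered values. Of the 359 wide genes, 163 split 2 against 2, and 152 of these set replicates 2 and 3 against 1 and 4, with 129 higher on 2 and 3 (35.9% of the 359) and 23 higher on 1 and 4. The other 2 ways to pair the arrays took 3 and 8 genes. In 105 genes 1 array stood high, 48 times replicate 2, and in 91 genes 1 array stood low. By the stricter ratio of the gap to the whole range, 1 array stood apart in 484 of the 9967 genes (4.86%), whatever their range. With no threshold on range, both replicates 2 and 3 lay above both 1 and 4 in 2204 of the 9967 genes (22.1%), and below both in 2075 (20.8%). Since all arrays share 1 distribution of values, a near balance of both directions comes with that scaling.

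The 30 named genes with the widest ranges spanned 2.07 to 3.83 log2 units. In 21 of them both replicates 2 and 3 lay above both 1 and 4, and in 6 below. Replicate 4 was the lowest array in 19, and replicate 3 the highest in 13. They held genes of Paneth cells, Wnt feedback inhibitors and genes best known from pancreas, stomach, neurons or skin.

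**Figure D4:**
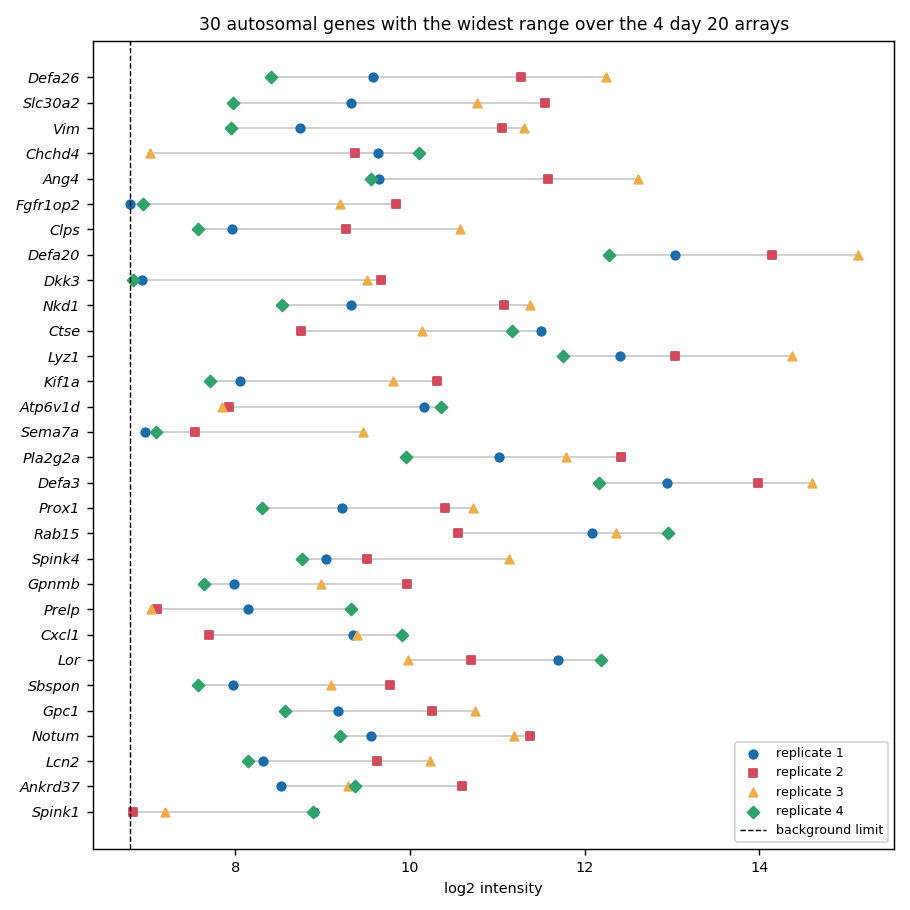
Log2 intensity on each of the 4 day 20 arrays for the 30 autosomal genes with the widest range, in order of range, from Defa26 at 3.83 to Spink1 at 2.07; the dashed line is the background limit. Replicates 2 and 3 lie to the right of replicates 1 and 4 in 21 genes and to the left in 6.

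Paneth cell products were among the widest genes, with Defa26 the first, Ang4 the fifth and Itln1 outside the 30. The alpha-defensin gene Defa26 was at 9.58, 11.27, 12.24 and 8.41, a 14.2-fold span on the intensity scale. Ang4, an antimicrobial ribonuclease, was at 9.65, 11.58, 12.61 and 9.56, and Defa3 at 12.94, 13.98, 14.60 and 12.16. In all 3 replicate 3 was the highest, replicate 2 next and replicate 4 the lowest. Pla2g2a, a secreted antibacterial phospholipase counted in the stem cell list, was highest on replicate 2, at 11.02, 12.42, 11.79 and 9.96. Itln1, a lectin that binds microbial sugars, had 9.60, 10.93, 10.42 and 8.95.

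Of the 11 Paneth genes measured, 6 had a range of at least 1, against 2.49% of all genes above the limit on at least 1 array. That share takes in the many dim genes, and it was 5.58% at means from 8 to 10 and 4.47% from 10 to 12. This list and the others were drawn up with earlier results of these data known. Such counts, here and for the lists below, are therefore descriptions. Of the 9 above the limit on every array, both replicates 2 and 3 lay above both 1 and 4 in 8, against 22.1% of all such genes. The mean of the 9 genes above the limit on every array, each centred on its own mean, was -0.41, 0.33, 0.73 and -0.65 on replicates 1 to 4. Mmp7, the protease that activates defensins, was at 7.53, 8.10, 7.63 and 7.38, and Nupr1, a stress-induced chromatin protein, ran otherwise, at 11.05, 11.25, 11.33 and 11.63. In bulk RNA, fewer cells of a type and less RNA per cell cannot be told apart. The Paneth values moved with the Xist and Eif2s3y signal, whose part in them was not tested. Goblet cell genes had list means of -0.16, -0.04, 0.41 and -0.21, the same order of arrays but high on replicate 3 only.

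The alpha-defensin genes were grouped after their values were seen. Of 8 measured, 6 were above the limit on all 4 arrays, namely Defa3, Defa20, Defa21, Defa23, Defa26 and Defa39. All 6 had a range of at least 1, and all had replicates 2 and 3 above 1 and 4. Over all genes above the limit on every array, 3.47% had such a range and 22.1% this order. Because the grouping followed the values, these counts are a description and no test against those shares. Defa21 was at 7.15, 7.75, 8.08 and 7.01, Defa23 at 7.52, 8.24, 8.94 and 7.14, and Defa39 at 7.20, 7.34, 8.05 and 6.87. These genes lie close to each other on chromosome 8 and are related copies, so probes may read several of them and the 6 are not independent. The other 2 probes of Defa20 gave the same order of arrays, at 12.52, 13.75, 14.86 and 11.65 and at 8.17, 9.31, 10.14 and 7.20.

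Promoters of 3 of the 6, those of Defa20, Defa21 and Defa23, were held in the RefSeq table (assembly GRCm38.p6), as 250 bases before to 50 after the gene's start. They were searched on both strands for 4 forms of the motif that TCF factors bind, spelled CTTTGAA or CTTTGAT, and, with T as the sixth letter, CTTTGTA as well as CTTTGTT. Each of the 3 had 2 matches, against 1.95% of 25748 autosomal promoters with at least 2 and 16.9% with at least 1. Of 272 wide genes with an entry, 39 held at least 1 match (14.3%), and of 100 with replicates 2 and 3 high, 15 did (15.0%). Among genes above the limit on every array it was 11.5%, so matches were about as common in wide genes as elsewhere. Aligned, the promoter of Defa20 was 97.7% identical to that of Defa21 and 83.1% to that of Defa23, so the 3 are not separate cases and a shared position of the matches comes with that likeness. Of the 6 wide genes of the Paneth list, all with a promoter entry, 2 held a match, Defa20 and Defa21, and Ang4, Habp2, Itln1 and Lyz1 held none in this window. The less alike pair is shown to let the letters around both matches be compared, with the match to the motif, read on the opposite strand, in capitals; a match is a description and not a binding site.
Defa20, chr8:21509008-21509307, plus strand: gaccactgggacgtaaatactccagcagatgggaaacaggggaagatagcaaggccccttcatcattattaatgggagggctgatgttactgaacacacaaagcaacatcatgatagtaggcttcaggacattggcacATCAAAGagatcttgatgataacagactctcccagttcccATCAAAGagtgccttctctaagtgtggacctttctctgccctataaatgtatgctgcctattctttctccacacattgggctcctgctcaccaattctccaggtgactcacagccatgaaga
Defa23, chr8:21054790-21055089, plus strand: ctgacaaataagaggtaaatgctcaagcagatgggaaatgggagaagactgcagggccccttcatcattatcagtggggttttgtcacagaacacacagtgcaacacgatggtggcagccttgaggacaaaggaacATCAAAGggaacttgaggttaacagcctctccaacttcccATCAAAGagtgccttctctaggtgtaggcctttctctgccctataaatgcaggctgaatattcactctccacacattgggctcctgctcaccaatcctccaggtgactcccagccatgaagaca
The matches begin at -112 and -72 from the start in Defa20 and at -114 and -74 in Defa23.

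Wnt target genes were above the limit in 18 of 22 members, against 54.6% of all autosomal genes, with a median of 9.97. Their ranges ran from narrow to wide. Axin2, a feedback inhibitor that rebuilds the destruction complex, was at 12.66, 12.65, 12.95 and 12.40. Ccnd1, encoding cyclin D1, was at 13.52, 13.64, 13.56 and 13.89, and Ccnd2 at 12.09, 12.73, 12.35 and 12.19. The ranges of these 3 and of Sox9 were 0.37 to 0.67, beside a median of 0.31 for all genes with means from 12 to 14.

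The widest members included 2 inhibitors of the pathway, Nkd1 and Notum. Dkk3, a secreted protein of the Dickkopf family, was at 6.93, 9.67, 9.51 and 6.83, near background on replicates 1 and 4 and well above it on 2 and 3. Nkd1, which inhibits Dishevelled, was at 9.33, 11.08, 11.37 and 8.54. Notum, a secreted enzyme that removes the lipid from Wnt proteins, was at 9.55, 11.37, 11.19 and 9.20. Prox1, a homeobox transcription factor, was at 9.22, 10.40, 10.72 and 8.31. In these 4 genes replicates 2 and 3 lay above 1 and 4 with no overlap. All 4 are among the 30 widest genes, of which 21 had this order, so it is not particular to them. At any range, 22.1% of genes above the limit on every array had it. Second probes above the limit on all 4 arrays gave the same split for Nkd1 (6.96, 7.41, 7.46 and 7.02), Prox1 (7.56, 9.10, 8.96 and 7.09) and Notum (7.55, 9.88, 9.76 and 7.62).

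In all, 7 of the 22 Wnt genes had a range of at least 1, against 2.49% of all genes above the limit on at least 1 array. Like the Paneth count, this describes a list drawn up with earlier results known. Of the 18 above the limit on every array, both replicates 2 and 3 lay above both 1 and 4 in 10, and below in 2. Over all such genes the shares were 22.1% above and 20.8% below. Myc, a growth-promoting transcription factor, was lower on replicates 2 and 3, at 8.12, 7.54, 7.82 and 8.20, and the adhesion receptor gene Cd44 likewise, at 11.52, 10.67, 11.15 and 11.22. The list means were -0.20, 0.30, 0.37 and -0.47 on replicates 1 to 4. The part of the sex-linked difference in this spread was not tested. Stem cell genes had 7 wide members of 17, against 2.49% of all genes above the limit on at least 1 array, again a description. The widest was Pla2g2a, given above with Paneth cell products, with a range of 2.46. Igfbp4, a binding protein of insulin-like growth factors, was at 11.55, 12.07, 12.77 and 11.06. Nrn1, a membrane-anchored neuritin, was at 6.89, 8.68, 8.16 and 6.81. Tnfrsf19, a receptor of the TNF family counted in both lists, was at 10.04, 10.90, 10.51 and 9.44, but its second probe ran the opposite way, at 7.32, 7.09, 7.34 and 7.54, so no direction can be given for it.

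Of the 7 wide Wnt genes, 4 had a promoter in the RefSeq table, and 1 of them, Sp5, held a match to the TCF forms. Over all autosomal promoters the share was 16.9%, and 1 of 4 is too few to read as a result about the list. Sp5, a zinc finger factor induced by Wnt signals, was at 11.57, 11.90, 11.94 and 10.90, with replicate 4 the lowest. Its promoter is shown for the 2 matches, in capitals, at -222 on the opposite strand and at -104 on the gene's own strand.
Sp5, chr2:70474673-70474972, plus strand: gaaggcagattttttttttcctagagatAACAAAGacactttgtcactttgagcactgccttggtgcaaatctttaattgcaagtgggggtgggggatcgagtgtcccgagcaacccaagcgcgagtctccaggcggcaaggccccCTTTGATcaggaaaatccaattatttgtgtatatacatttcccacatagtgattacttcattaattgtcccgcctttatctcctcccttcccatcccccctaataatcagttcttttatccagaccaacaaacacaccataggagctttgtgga

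Genes of the hypoxia response, which cells switch on through HIF factors when oxygen is short, were above the limit in 13 of 16 members. Over all autosomal genes the share above it was 54.6%. Of the 16, 9 had a range of at least 1, against 2.49% of all genes above the limit on at least 1 array. This list too was drawn up with earlier results known, so the count is a description. Car9, a carbonic anhydrase at the cell surface, was at 11.39, 12.37, 11.80 and 10.97. Egln3, an oxygen sensor that marks HIF for removal, was at 10.57, 12.02, 11.64 and 11.24, and the angiogenic factor gene Vegfa at 8.65, 10.09, 9.56 and 9.26. Ankrd37, an ankyrin repeat protein, was at 8.53, 10.60, 9.29 and 9.37, the widest of the list. Replicate 2 was the highest array in all 4 genes, and in 3 of them replicate 1 was the lowest.

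The hypoxia list means were -0.53, 0.56, 0.12 and -0.16 on replicates 1 to 4, so their order was not that of the Paneth or Wnt lists, whose highest array was replicate 3. In 9 of the 13 members above the limit on every array both replicates 2 and 3 lay above both 1 and 4, and in 0 below. Over all such genes the shares were 22.1% and 20.8%. Glycolysis genes were above the limit in 13 of 13 members, against 54.6% of all autosomal genes. Their list means were -0.32, 0.30, 0.12 and -0.10. Aldoc, an aldolase, was the only wide one, at 9.76, 11.59, 11.12 and 9.79, and Ldha, lactate dehydrogenase, was at 14.40, 14.99, 14.72 and 14.53. In 10 of the 13 glycolysis genes both replicates 2 and 3 lay above both 1 and 4, against 22.1% of all genes above the limit on every array. The part of culture conditions or of the sex-linked difference in these values was not tested.

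ACGTG, the core letters of the element that HIF factors bind, was found on either strand in the promoters of 5 of 8 wide hypoxia genes with an entry (62.5%), against 25.9% of 8119 genes above the limit on every array and 19.8% of all autosomal promoters. So short a motif matches often by base composition alone, and known targets were listed, so this describes the list. Of all 272 wide genes with an entry, 61 held ACGTG (22.4%), and of 100 with replicates 2 and 3 high, 27 did (27.0%). The promoter of Ankrd37, the widest of them, is shown for its 2 matches, in capitals, at -241 and -6.
Ankrd37, chr8:45999801-46000100, minus strand: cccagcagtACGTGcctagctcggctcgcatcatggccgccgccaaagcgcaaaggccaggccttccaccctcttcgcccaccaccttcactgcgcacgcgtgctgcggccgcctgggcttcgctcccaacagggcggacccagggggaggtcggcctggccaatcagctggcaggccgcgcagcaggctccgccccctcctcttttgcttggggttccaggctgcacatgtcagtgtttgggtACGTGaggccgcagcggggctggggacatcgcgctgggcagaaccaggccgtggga

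**Figure D5:**
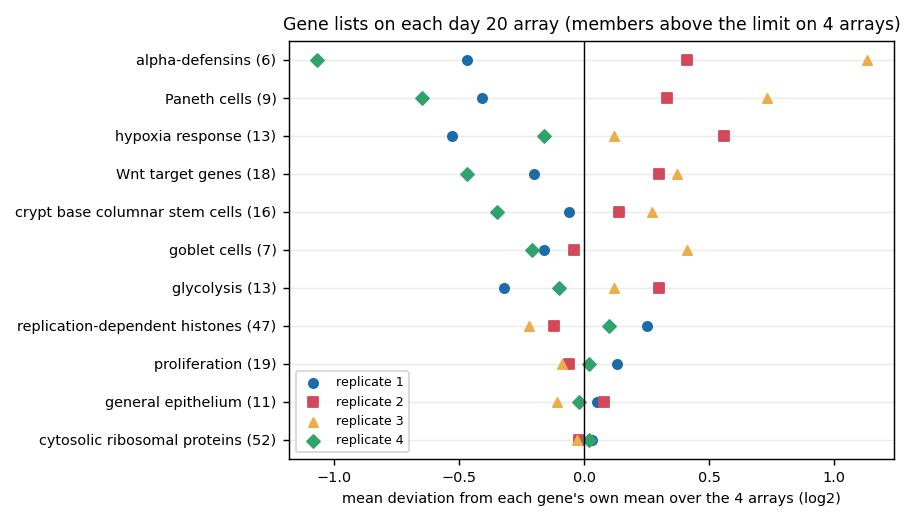
Mean deviation of each gene list from its genes' own means (log2) on each of the 4 day 20 arrays, over members above the background limit on all 4, whose number stands in brackets. Alpha-defensin and Paneth genes spread by 2.20 and 1.38 between arrays, hypoxia genes by 1.09, and proliferation and ribosomal protein genes by 0.22 and 0.06.

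Proliferation genes were above the limit in 19 of 21 members and none had a range of at least 1. With 2.49% of all genes that wide, a count of 0 in a list of this size is near the share over all genes and is no result about the list. Mcm5, of the DNA helicase, was at 12.92, 12.56, 12.48 and 12.64, and the mitotic kinase gene Plk1 at 11.94, 11.64, 11.79 and 11.90. Oxidative phosphorylation genes (24 measured) and cholesterol synthesis genes (15 measured) likewise had 0 wide members. The list means of these 3 spanned 0.22, 0.22 and 0.11.

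Histone genes whose transcripts are made in S phase, grouped after their values were seen, ran the other way from the defensins. Of 55 measured, 47 were above the limit on every array, against 54.6% of all autosomal genes. A range of at least 1 was reached by 9, against 2.49% of all genes above the limit on at least 1 array. In 30 of the 47 both replicates 2 and 3 lay below both 1 and 4, against 20.8% of all genes above the limit on every array. Because the grouping followed the values, these counts too are a description and no test. H1f2, a linker histone, was at 12.28, 11.23, 10.91 and 11.85, and H3c6 at 10.37, 9.17, 9.47 and 10.12. The list means were 0.25, -0.12, -0.22 and 0.10. In 2 of the 9 wide genes, H2bc21 and H3c7, a second probe gave the opposite order. Of the 19 proliferation genes above the limit on every array, both replicates 2 and 3 lay below both 1 and 4 in 8. Their list means were 0.13, -0.06, -0.09 and 0.02. Histone copies share sequence, so their probes are not independent readings.

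Vim, the intermediate filament protein vimentin of mesenchymal cells, had the widest range outside the Paneth genes bar Slc30a2, at 8.74, 11.05, 11.31 and 7.95. Its second probe was above the limit on no array, at 6.63 to 6.73. Of the other 11 mesenchymal genes, Pdgfra was above the limit on all 4 arrays, at 6.84 to 6.88, Col1a2, Col3a1, Pdgfrb and Twist1 on 1 to 3 arrays, none above 6.99, and 6 on no array. The part of mesenchymal cells in the Vim signal was not tested. Slc30a2, a zinc transporter of secretory vesicles, was at 9.33, 11.55, 10.77 and 7.97. Clps, encoding the pancreatic lipase cofactor colipase, was at 7.96, 9.27, 10.57 and 7.57, and its second probe kept that order, at 7.24, 8.07, 9.37 and 7.05.

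Further wide genes that were high on replicates 2 and 3 were Kif1a, a motor of neuronal vesicles (8.06, 10.31, 9.81 and 7.71), Gpc1, a heparan sulfate proteoglycan (9.18, 10.25, 10.75 and 8.57), and Gpnmb, a membrane glycoprotein of lysosomes and melanosomes (7.99, 9.97, 8.98 and 7.64). Sbspon, a matrix protein, was at 7.98, 9.77, 9.10 and 7.57. Lcn2, an antibacterial protein that binds iron carriers, was at 8.32, 9.62, 10.23 and 8.15. In these 5 genes replicates 2 and 3 did not overlap 1 and 4 by the brightest probe. All 5 are among the 30 widest genes, of which 21 had this order, beside 22.1% of genes above the limit on every array at any range. The second Kif1a probe kept the split with a range of 0.58. Other Gpnmb probes had means of 6.75 to 6.82, and with probes averaged its range was 0.598 in place of 2.33. The second Sbspon probe had a mean of 6.73. Sema7a, a membrane-anchored semaphorin, was high on replicate 3 alone by its brightest probe, at 6.97, 7.54, 9.46 and 7.09. Its other probes had means of 6.75 and 6.70.

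The opposite order was found in Atp6v1d, a subunit of the vacuolar proton pump, at 10.16, 7.93, 7.85 and 10.36. Lor, encoding the cornified envelope protein loricrin of skin, was at 11.69, 10.70, 9.98 and 12.19. Spink1, an inhibitor of trypsin, was at 8.90, 6.83, 7.20 and 8.89, and Prelp, a matrix proteoglycan, at 8.15, 7.11, 7.04 and 9.33. In these 4 genes both replicates 1 and 4 lay above both 2 and 3, and Spink1 and Prelp were close to background on the latter. All 4 are among the 30 widest genes, of which 6 had this order, beside 20.8% of genes above the limit on every array at any range.

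By the largest gap, 1 array stood low in 91 of the 359 wide genes, and 3 of these are given here. The stricter ratio of the gap to the whole range did not set an array apart in any of the 3. Chchd4, which imports proteins into the mitochondrial intermembrane space, was near background on replicate 3 alone, at 9.64, 9.37, 7.03 and 10.10. Replicate 2 was the lowest for Cxcl1, a neutrophil-attracting chemokine (9.35, 7.70, 9.40 and 9.91), and for Rab15, a GTPase of endosomes (12.08, 10.55, 12.36 and 12.95). These 3 genes had 1 named probe each.

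Second probes did not always repeat a wide range. Of the 359 wide genes, 127 had at least 2 probes above the limit on every array. In 67 of these the second probe had the same highest and lowest arrays, in 51 another order, and in 9 the opposite one. Ctse, encoding the protease cathepsin E, was at 11.50, 8.75, 10.14 and 11.17 by its brightest probe and at 7.08, 8.50, 8.10 and 7.03 by its second, the reverse order with a range of 1.47. Fgfr1op2 was at 6.79, 9.84, 9.20 and 6.95 by one probe and at 7.64, 8.28, 8.08 and 7.81 by another, with the same split but a range of 0.64. No single direction can be given for Ctse.

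Wide genes were spread over all 19 autosomes, in 1.45% (chromosome 10) to 3.22% (chromosome 15) of the genes above the limit on each. In 18 cases neighbours on a chromosome were both wide, and in 9 of these the same arrays were high. How many such pairs any 359 genes would give was not worked out. Of all wide genes 35.9% were high on replicates 2 and 3, so the counts are no result about position. Besides the defensin run the 9 pairs included Guca2a and Guca2b, encoding the gut peptides guanylin and uroguanylin. They were at 9.45, 9.87, 10.77 and 9.30 and at 9.11, 9.33, 9.87 and 8.64, both highest on replicate 3. Guca2b and the other neighbours were picked after their values were seen.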

How the data were processed

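RNA from 8 organoid samples was measured on Illumina mouse beadchips, and the 4 day 20 arrays were used. The deposited values are log2 intensities in 2 decimals, with the same distribution on every array, as quantile normalization leaves it; how the authors corrected background and normalized, and with which software, is not given in the sources used here. A second deposited table was not used, because the names of its 16 per-sample columns match no sample label.

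Of 45281 probes, 34885 had 1 gene symbol in the platform annotation, 18 had several and 10378 were not listed. Entrez numbers of 34807 were found in the RefSeq table of GRCm38.p6, which gave the chromosomes and, with its promoter table, the sequences and their coordinates. Sex chromosomes were left out. The background limit was the mode of the 4 arrays' values, 6.7, plus the normal deviate of an upper tail of 0.05 times an SD of 0.05838, taken about the mode from the values up to it.

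A gene's range is the highest minus the lowest array. With 1 group there is nothing to test, so no p-value is given. Named genes were the 25 brightest, the 30 widest and the 10 steadiest (mean of at least 12), all marker genes, up to 4 widest and 4 brightest members of each other list, Apc and Lgr5; others are said to be picked after their values were seen, which also holds for Rpl22, Myc, Cd44, Sp5 and Defa21, Defa23 and Defa39. The planned search for the closest profiles by correlation was not run, since 4 arrays are fewer than the 6 that a correlation over samples needs. The members and lists were chosen with earlier results of these data known.

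The steps were checked on simulated data. Python 3.11.15 with pandas 2.3.3, numpy 2.4.6 and matplotlib 3.10.9, and limma 3.58.1 in R 4.3.3 for cyclic loess, were used. Alternatives were a strict limit (6.836), the limit of all 8 arrays, no limit, averaged probes, cyclic loess, the background mode subtracted with an offset of 16, and each array left out; replicates 2 and 3 alone and 1 and 4 alone were added after the data were seen.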

Additional observations from a re-analysis of the deposited data

Results flagged for a closer look

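In the 65 named genes without the marker lists, and in 31 list means, the gap between 1 array and its nearest neighbour was set against the whole range; chance sets about 1 in 20 apart, and 484 of 9967 genes (4.86%) were set apart. Among the named genes 1 was: Atp5b, of the mitochondrial ATP synthase, lowest on replicate 1 at 15.19, against 15.30 to 15.32 on the others. Among the lists 2 were. Enteroendocrine genes had a mean deviation of 0.22 on replicate 3, the highest, against -0.10 to -0.05 on the others. Cholesterol synthesis genes had 0.08 on replicate 2, the highest, against -0.03 to -0.02.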

How the results depend on the processing

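The count of genes above the limit on every array, 9967, was 9229 under the strict limit, 9967 with the limit of all 8 arrays, 9250 with averaged probes, 9997 under cyclic loess and 10226 to 10349 with 1 array left out. The 359 genes with a range of at least 1 numbered 359 under the strict limit and with no limit, 358 under cyclic loess, 225 with averaged probes and 1537 with the background mode subtracted, which widens dim genes. With 1 array left out they numbered 209 to 282, the lowest without replicate 2, and 237 without replicate 1, where fewer arrays also give narrower ranges. Replicates 2 and 3 alone gave 53 and 1 and 4 alone 26. Tuft cell members above the limit rose from 1 to 2 without replicate 1 or 3, mesenchymal members fell to 1 with averaged probes, endothelial members from 4 to 2 under the strict limit and with averaged probes, blood and immune members from 3 to 1 with averaged probes, and neural and glial members were 0 with averaged probes and 2 without replicate 2. Counts of the other 10 cell classes moved by no more than 1.5 times. The mean signals of the 65 named genes were recalculated only under cyclic loess and with each array left out. Under cyclic loess all 65 stayed within 1 SD of the reported value. With an array left out all 260 did too, but the mean of 4 arrays cannot move further than that, so this tests nothing. Ranges of the named genes moved by more than 1 SD in 36 of 260 recalculations with an array left out. They did so in 18 of 65 with averaged probes, 7 of 65 with the background subtracted and 2 of 65 under cyclic loess. No paired analysis was possible because 1 group was described and no contrast was fitted. Signal near background and the 4 arrays limit what can be said of dim genes.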

Other observations

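Of 30 glutathione and xenobiotic genes 28 were above the limit on every array. A range of at least 1 was reached by 8, against 2.49% of all genes above the limit on at least 1 array. The list was drawn up with earlier results known, so this is a description. In 6 of the 28 both replicates 2 and 3 lay above both 1 and 4, and in 4 below. These counts are near the 22.1% and 20.8% of all genes above the limit on every array and are no result about the list. Srxn1, which repairs oxidised peroxiredoxins, was at 10.24, 9.10, 10.03 and 9.61, and the cytochrome P450 gene Cyp2s1 at 8.57, 9.36, 10.05 and 8.58, so the highest array was replicate 1 in one and replicate 3 in the other. Picked after their values were seen, Slc7a11, the cystine transporter, had 10.04, 8.43, 9.40 and 8.86, Hmox1, heme oxygenase, 8.62, 8.04, 7.58 and 7.94, and Gclm, of glutathione synthesis, 11.59, 10.55, 10.96 and 10.87. Replicate 1 was the highest in all 3. Mt1 and Mt2, metal-binding metallothioneins, were also highest there, at 15.30 against 14.37 to 14.64 and at 8.66 against 7.37 to 7.86.

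Immediate early genes were lowest on replicate 1 as a list, with means of -0.23, 0.14, 0.08 and 0.01 over 14 of 16 members. Ier3, which is induced by stress and growth factors, was at 12.16, 13.51, 13.33 and 13.13, and Dusp1, a phosphatase of MAP kinases, at 8.74, 9.79, 9.37 and 9.32. Of 7 Reg genes, which encode secreted lectins, 4 were above the limit on every array, and Reg3b was at 13.94, 13.12, 13.79 and 14.17, lowest on replicate 2. None of 25 interferon response genes and none of 22 antigen presentation genes had a range of at least 1, near the 2.49% of all genes that did. Among p53 target genes, Cdkn1a, the cell cycle inhibitor p21, was at 12.10, 12.48, 12.28 and 12.49, and 1 of 17, the apoptosis gene Bbc3, was wide, at 10.30, 10.06, 9.25 and 9.84.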
